A study of Mus musculus with 6 samples.

Results

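The 8 genes described here, Pou5f1, Sox2, Nanog, Sall4, Utf1, Dppa2, Dppa4 and Dppa5a, encode the transcription and chromatin factors at the centre of the mouse pluripotency network, together with an RNA-binding protein. They were picked by name, and all 8 had a row among the 24191 genes of the deposited table. PolyA RNA was compared between 3 libraries of Mettl5 -/- cells (Mettl5 knockout) and 3 libraries of wild-type (WT) cells, to learn how loss of an enzyme that methylates ribosomal RNA bears on pluripotency. All 6 libraries came from J1 mouse embryonic stem cells grown for 7 days in serum and LIF, the cytokine that keeps such cells undifferentiated. No treatment differed between the groups. How Mettl5 was disrupted, and whether the knockout libraries came from more than 1 clone, could not be read from the labels. Nothing says that replicates were separate cultures, so p-values measure the spread between these libraries, which may be technical.

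OCT4 (the product of Pou5f1) and SOX2 bind DNA side by side on a joint element, and together with NANOG they hold their own genes and many other embryonic genes active. SALL4 binds alongside OCT4 and NANOG. UTF1, DPPA2 and DPPA4 bind chromatin and keep developmental genes in a state from which they can be switched on. DPPA5A is a KH-domain protein that binds RNA and is abundant in embryonic stem cells.

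Promoter sequences (250 bases before to 50 after an annotated transcription start, RefSeq, GRCm38.p6) were at hand for 4 of the 8 genes and are shown because OCT4 and SOX2 act on the core genes themselves. Capitals mark 4 motifs, searched on both strands: an octamer-type sequence (ATGCAAA), a SOX-type sequence (CATTGT), the joint element (the SOX-type sequence, any 1 base, then the octamer-type sequence), and the GC box (GGGCGG), which can overlap with itself. Sox2 is shown at chr3:34649745-34650044, Nanog at chr6:122707239-122707538, Utf1 at chr7:139943606-139943905 and Pou5f1 at chr17:35505782-35506081, all on the plus strand.
Sox2: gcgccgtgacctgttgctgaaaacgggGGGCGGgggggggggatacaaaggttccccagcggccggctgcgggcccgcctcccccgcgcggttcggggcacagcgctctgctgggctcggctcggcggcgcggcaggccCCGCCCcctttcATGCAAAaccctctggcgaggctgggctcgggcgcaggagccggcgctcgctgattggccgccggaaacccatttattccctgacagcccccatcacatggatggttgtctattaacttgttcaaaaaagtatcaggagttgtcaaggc
Nanog: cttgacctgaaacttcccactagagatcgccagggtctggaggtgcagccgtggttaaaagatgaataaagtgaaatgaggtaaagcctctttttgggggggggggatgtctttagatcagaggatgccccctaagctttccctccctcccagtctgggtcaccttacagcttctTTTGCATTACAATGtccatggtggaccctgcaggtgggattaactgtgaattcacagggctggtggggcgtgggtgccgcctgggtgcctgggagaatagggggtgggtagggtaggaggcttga
Utf1: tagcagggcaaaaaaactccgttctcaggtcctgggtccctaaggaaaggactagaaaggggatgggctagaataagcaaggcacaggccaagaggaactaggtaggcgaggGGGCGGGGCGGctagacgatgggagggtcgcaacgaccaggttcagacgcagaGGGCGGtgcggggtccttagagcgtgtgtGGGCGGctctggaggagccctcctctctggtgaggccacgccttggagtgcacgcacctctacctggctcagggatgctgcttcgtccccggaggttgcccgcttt
Pou5f1: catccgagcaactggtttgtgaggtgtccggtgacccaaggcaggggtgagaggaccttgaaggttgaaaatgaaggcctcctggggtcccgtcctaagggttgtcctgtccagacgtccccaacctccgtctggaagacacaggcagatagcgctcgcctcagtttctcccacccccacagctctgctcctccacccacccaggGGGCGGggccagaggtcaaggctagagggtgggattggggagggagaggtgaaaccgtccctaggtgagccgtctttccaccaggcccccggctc
The joint element was found in the Nanog window as TTTGCATTACAATG on the opposite strand, 75 to 62 bases before the start. Of 32851 promoter windows, 2 (0.00609%) held it, and both belong to Nanog, which has overlapping starts in the table. The Sox2 window held the octamer-type sequence 99 to 93 bases before its start, as did 4.63% of all windows. That window ends at 34650044, upstream of the Sox2 gene start in the annotation used for the values below (34650405), so the 2 starts differ. The SOX-type sequence was in 12.6% and the GC box in 35.7% of all windows. The Sox2 window also held GC boxes 223 to 218 and, on the opposite strand, 111 to 106 bases before its start. Utf1 had 4 GC boxes and Pou5f1 had 1 in the window shown. Another Pou5f1 window, not shown (chr17:35508557-35508856), held the SOX-type sequence as ACAATG on the opposite strand, 158 to 153 bases before its start. A match is a description of the letters, not a bound site.

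The knockout libraries had less Sox2 and Utf1 RNA, slightly less Pou5f1 RNA, and more Sall4, Dppa2 and Dppa5a RNA than WT libraries, while Nanog and Dppa4 did not pass the test. Log2 fold changes ran from -0.58 for Sox2 to 0.47 for Sall4, with a median of 0.036 over the 8 genes and 0.00 over all genes tested. Regardless of sign, the median size of change was 0.46 over all genes and 0.30 over genes averaging 20 or more on the TPM scale. Of the latter, 22.6% changed more than Sox2, 27.3% more than Utf1, 31.6% more than Sall4, 84.1% more than Pou5f1 and 94.3% more than Dppa4. All 8 genes passed the filter on low values, which asked for 1 scaled read on average, and 6 of 8 passed an adjusted p of 0.05 (limma, Benjamini-Hochberg over 24183 genes), 3 higher and 3 lower. Over all genes tested, 62.6% were called, 33.6% higher and 28.9% lower. With library totals made equal, 63.9% were called (26.1% higher and 37.8% lower), and on the TPM column 61.7% (29.8% higher and 31.9% lower). Among 5648 genes averaging 20 or more on the TPM scale, where all 8 genes lie, 80.7% were called, 49.3% higher and 31.4% lower. The share called among the 8 genes (75%) therefore lay between these backgrounds, and being called does not set them apart. Levels below are on the TPM scale, the authors' rescaled, length-corrected column. Fold changes are log2(scaled reads + 1), knockout over WT, with their standard error (SE), and the columns are scaled differently.

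**Figure D1:**
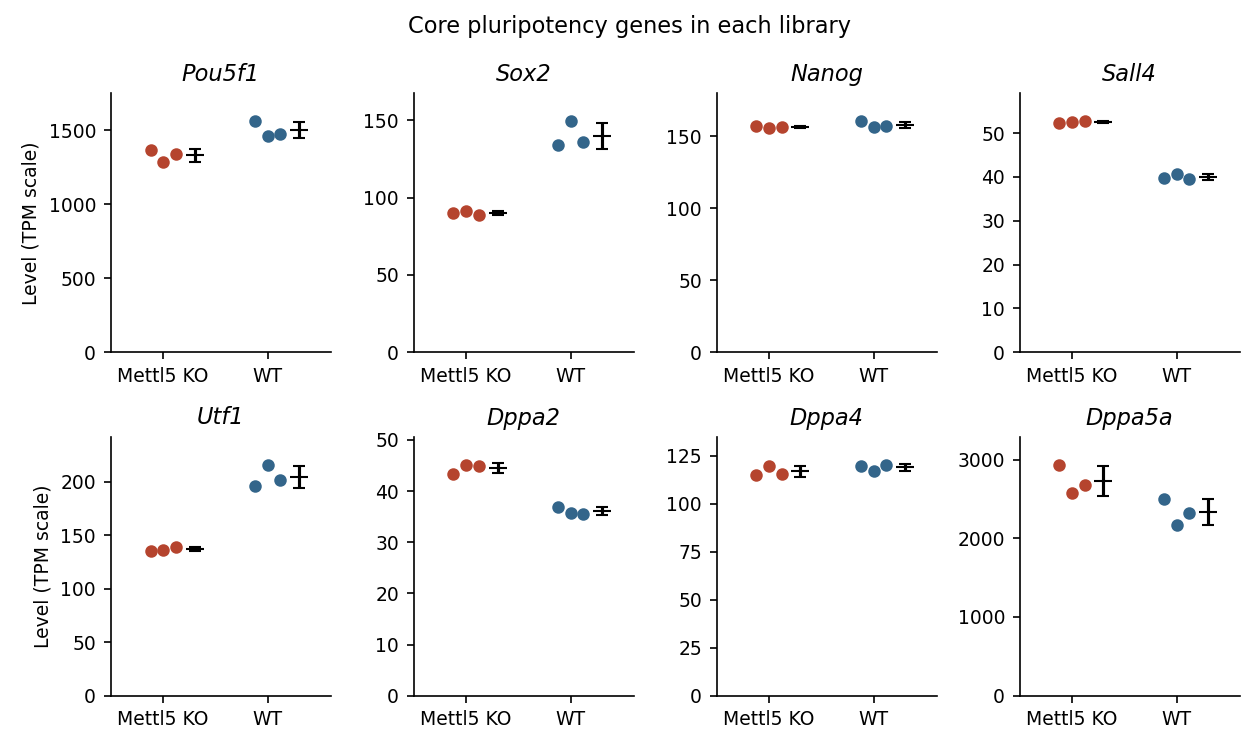
Levels of the 8 core genes (TPM scale, axes from 0) in each library, Mettl5 KO left and WT right, with mean and SD beside the points (n = 3 each). Sox2 and Utf1 are lower and Sall4, Dppa2 and Dppa5a higher in every knockout library than in any WT library, while the Nanog and Dppa4 points overlap.

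Facts of the libraries bear on every value below. Estimated depth, from the step size of the scaled reads, was 40439417 to 59642941 fragments in knockout and 38543563 to 52749412 in WT libraries, and the 8 genes had mean scaled reads from 1421 upward, so counting error is small. Mettl5 was at 3.32 to 3.65 on the TPM scale in the knockout libraries, against 48.6 to 50.3 in the WT libraries. All 15 embryonic stem cell markers on a list, which holds the 8 core genes and 7 others, were above 1 on the TPM scale in both genotypes and summed to 5428 to 5869 in knockout and 5891 to 6292 in WT libraries, sums that Dppa5a and Pou5f1 dominate. Of these 15 markers, 4 were higher, 9 lower and 2 not called. Of 16 fibroblast markers, 14 were higher and 2 lower, with sums of 346 to 359 in knockout and 65.0 to 75.0 in WT libraries. Most of that sum was Vim (294 in knockout and 49.5 in WT), and Col1a1 was at 17.7 in knockout and 0.694 in WT. The 2 lower markers were Thy1 (5.91 in knockout and 13.1 in WT) and Pdgfra (0.733 and 1.56). Of the 16, 6 were under 1 on the TPM scale in knockout and 11 in WT. None of the 16 was at 0 in a knockout library, and Lum was listed at 0 in WT replicate 3. Vim, Col1a1, Thy1, Pdgfra and Lum were named after their values were seen. Of 10 endoderm markers tested, from 12 listed, 9 were lower and none higher (sums of 16.6 to 17.6 in knockout and 53.8 to 55.3 in WT). Of these, 7 were under 1 on the TPM scale in knockout and 2 in WT. Neural markers were mixed: of 8 tested, 3 were higher, 2 lower and 3 not called (sums of 80.9 to 84.0 in knockout and 90.9 to 92.6 in WT). Beside these marker counts, 33.6% of all genes tested were higher and 28.9% lower. For genes of 20 or more on the TPM scale, the shares were 49.3% and 31.4%. In bulk RNA, fewer cells expressing a gene and less RNA per cell cannot be told apart, and the part of other cell types in the changes below was not tested.

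Pou5f1 (ENSMUSG00000024406, mm10 chromosome 17, 35506018 to 35510772) encodes OCT4, without which pluripotent cells turn into trophoblast. Its level was 1368, 1285 and 1336 in the knockout libraries, against 1560, 1460 and 1475 in the WT libraries. Every knockout library lay below every WT library, and replicate 2 was the lowest of each genotype. The log2 fold change was -0.089 (SE 0.0317, 95% confidence interval -0.16 to -0.02, limma adjusted p 0.0343). Of all genes tested, 89.0% had a larger change in size. The call was lost without knockout replicate 2 (adjusted p 0.125), knockout replicate 3 (0.0706), WT replicate 1 (0.119) or WT replicate 3 (0.0730), and when the intensity trend was left out of limma (0.155). Rescaling libraries to equal totals, where the median of all genes is -0.15, gave -0.25. Centring by chromosome median level, where that median is -0.10, gave -0.27. Centring by chromosome median deviation, chosen after seeing the data, gave -0.17, with a median of -0.02 over all genes. Each of these passed. Gm19553, annotated antisense to Pou5f1, was at 0.770 to 1.27 in knockout and 1.04 to 1.17 in WT libraries. It shares 11.3% of the 31-base words of Pou5f1, and how strand was set in the counting is not stated, so reads from that stretch cannot be told apart.

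Sox2 (ENSMUSG00000074637, chromosome 3, 34650405 to 34652461), a single-exon HMG-box gene, encodes the DNA-binding partner of OCT4. It was at 90.2, 91.2 and 88.5 in the knockout libraries, against 134, 149 and 136 in the WT libraries. The groups were far apart, and the knockout libraries were closer to each other (coefficient of variation 1.59%) than the WT libraries (6.06%, with replicate 2 highest). The difference on the log2 scale was -0.58 (SE 0.0408; adjusted p 1.53e-06 in limma), a fold change of 0.668 and the largest of the 8 genes. Genes of chromosome 3 had a median change of 0.16, opposite in sign to that of Sox2. Without WT replicate 2 the Sox2 change was -0.53. Sox2ot, the noncoding RNA whose gene spans Sox2, was at 0.852 to 1.04 in knockout and 1.17 to 1.43 in WT libraries and did not pass (log2 fold change -0.34, adjusted p 0.125).

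Nanog (ENSMUSG00000012396, chromosome 6, 122707489 to 122714633) encodes a homeodomain factor that can sustain self-renewal without LIF. It was at 157, 156 and 157 in the knockout libraries, against 161, 156 and 157 in the WT libraries. These levels overlapped, although in scaled reads the knockout libraries (17230 to 17451) lay just above the WT libraries (16689 to 17099). Of the 31-base words of Nanog, 10.7% also occurred in other genes' transcripts. The log2 fold change was 0.040 (SE 0.0227, 95% confidence interval -0.012 to 0.091, limma adjusted p 0.158), so no difference was detectable with the deposited scaling. Its direction depended on the scaling. It was -0.12 with equal totals (adjusted p 0.00215) and -0.014 on the TPM column (0.578). Chromosome 6 had a median change of -0.29, with 46.4% of its 1180 tested genes lower, and against the other genes of that chromosome Nanog was higher, by 0.30 when set against median levels and by 0.32 when set against median deviations (adjusted p 0.000132 and 1.67e-06, the second centring chosen after seeing the data).

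Sall4 (ENSMUSG00000027547, chromosome 2, 168748332 to 168767943), a zinc-finger gene, encodes a partner of OCT4 and NANOG. It was at 52.3, 52.5 and 52.7 in the knockout libraries, against 39.8, 40.6 and 39.5 in the WT libraries. Each genotype was tight, with coefficients of variation of 0.628% in knockout and 1.22% in WT libraries, and the groups did not overlap. On the log2 scale this was 0.47 (SE 0.0314; adjusted p 1.18e-06 in limma), a fold change of 1.38. Equal totals gave 0.31, which also passed. Of the 31-base words of Sall4, 8.39% also occurred in transcripts of another gene.

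Utf1 (ENSMUSG00000047751, chromosome 7, 139943789 to 139945112) encodes a chromatin-bound factor and is a long-known target of OCT4 and SOX2. It was at 135, 136 and 139 in the knockout libraries, against 196, 216 and 201 in the WT libraries. As for Sox2, no library crossed over, and WT replicate 2 was the highest. On the log2 scale this was -0.52 (SE 0.0365; adjusted p 1.65e-06 in limma), a fold change of 0.700. None of its 31-base words occurred in a transcript of another gene, so its reads are not shared with a copy.

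Dppa2 and Dppa4 lie next to each other on chromosome 16 and encode SAP-domain proteins that act as a pair. Dppa2 (ENSMUSG00000072419, 48303908 to 48319723) was at 43.4, 45.2 and 44.9 in the knockout libraries, against 36.9, 35.7 and 35.6 in the WT libraries, with no overlap. Its change on the log2 scale was 0.35 (SE 0.0291; adjusted p 4.52e-06 in limma). Dppa4 (ENSMUSG00000058550, 48283733 to 48294237) was at 115, 120 and 116 in the knockout libraries, against 120, 117 and 120 in the WT libraries. These overlapped, and the log2 fold change was 0.033 (SE 0.0274, 95% confidence interval -0.029 to 0.095, limma adjusted p 0.327). With equal totals the Dppa2 change was 0.20, which passed. Dppa4 turned to -0.12 with equal totals (adjusted p 0.00303), to -0.027 on the TPM column (0.386) and to -0.28 or -0.071 when centred by chromosome (0.000145 and 0.0392). Dppa2 fell below the threshold when each value was set against its chromosome's median level (0.043, adjusted p 0.335), but not when set against the median deviation of its chromosome (0.25). Chromosome 16 as a whole had a median change of 0.07.

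Copies limit these values. Of the 31-base words in Dppa2 and Dppa4 transcripts, 33.8% and 40.1% also occurred in other genes' transcripts. Processed pseudogenes with rows in the table were low: Gm9788, which resembles Dppa2, was at 0.218 to 0.315 in knockout and 0.708 to 1.01 in WT libraries. Gm14058, which resembles Dppa4, was at 4.35 to 5.45 in knockout and 4.58 to 5.14 in WT libraries. Adding such pseudogenes to their gene left the log2 fold changes at 0.35 for Dppa2 and 0.035 for Dppa4.

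Dppa5a (ENSMUSG00000060461, chromosome 9, 78367052 to 78368177) encodes the RNA-binding protein and was the most abundant of the 8 transcripts. It was at 2936, 2577 and 2675 in the knockout libraries, against 2504, 2171 and 2317 in the WT libraries. The groups did not overlap, but the gap between them was narrow and the spread the widest of the 8 genes (coefficients of variation 6.42% and 6.99%). This was 0.31 on the log2 scale (SE 0.0569; adjusted p 0.00108 in limma), and 0.15 with equal totals (adjusted p 0.0483). Its pseudogenes Dppa5b and Dppa5c had identical values, at 3.17 to 3.98 in knockout and 2.94 to 4.58 in WT libraries. Of its 31-base words, 57.2% occurred in other genes' transcripts. The largest part, 22.8%, was shared with the protein-coding gene Pigp, at 40.1 to 41.5 in knockout and 52.8 to 55.3 in WT libraries. Pigp was lower in knockout (log2 fold change -0.33, limma adjusted p 3.06e-05).

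**Figure D2:**
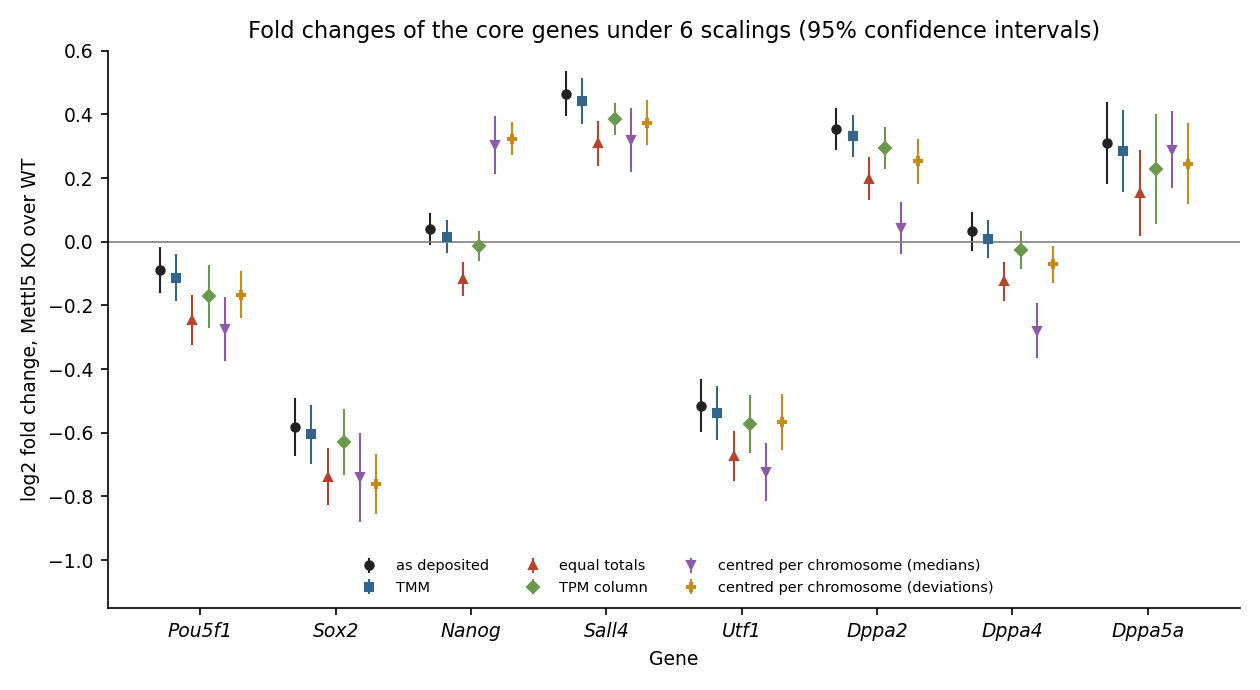
The log2 fold changes of the 8 genes, Mettl5 KO over WT, with 95% confidence intervals from limma, under the deposited scaling, TMM, equal totals, the TPM column and 2 ways of centring by chromosome. Sox2, Utf1 and Pou5f1 stay below 0 and Sall4, Dppa2 and Dppa5a above 0, while Nanog and Dppa4 lie on both sides of 0.

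The order of abundance changed with genotype. In both genotypes Dppa5a was the highest of the 8 genes and Pou5f1 the next, and Sall4 and Dppa2 were the lowest. Between them, knockout libraries had Nanog (157 on average), Utf1 (137), Dppa4 (117) and Sox2 (88.5 to 91.2), whereas WT libraries had Utf1 (204), Nanog (158), Sox2 (139.9) and Dppa4 (119). No neighbours in either order overlapped between libraries. Pou5f1 ranked 140 among all tested genes in knockout and 113 in WT libraries, and Sox2 ranked 1612 and 1020. The 8 genes together held 0.437% to 0.480% of the TPM-scale total in knockout and 0.444% to 0.490% in WT libraries, so their joint share overlapped.

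Ratios within a library do not depend on how libraries are scaled against each other. Sox2 RNA was 6.60%, 7.10% and 6.62% of Pou5f1 RNA in the knockout libraries, against 8.59%, 10.2% and 9.23% in the WT libraries. Utf1 was likewise lower relative to Pou5f1, at 10.3% ± 0.370 in knockout and 13.6% ± 1.11 in WT libraries (SD, n = 3). Nanog was 11.5%, 12.1% and 11.7% of Pou5f1 in the knockout libraries, against 10.3%, 10.7% and 10.7% in the WT libraries. Although the Nanog level itself did not pass, this ratio was higher in every knockout library. Sall4 was at 3.95% ± 0.133 of Pou5f1 in knockout and 2.67% ± 0.117 in WT libraries, and Dppa5a at 205% ± 8.23 and 155% ± 6.09 (SD, n = 3). Dppa2 was 37.7%, 37.6% and 38.8% of Dppa4 in the knockout libraries, against 30.9%, 30.5% and 29.5% in the WT libraries. That pair therefore shifted by 0.32 on the log2 scale (standard error of the difference 0.0254), in favour of Dppa2. All 8 ratios tested (each of the other 7 genes to Pou5f1, and Dppa2 to Dppa4) separated the genotypes without overlap. This is common: over all other genes tested, 66% of ratios to Pou5f1 and 67.1% of ratios to Dppa4 did so on the TPM scale, and 7 of the 8 ratios share Pou5f1, which itself separated the genotypes. Each gave 0.1 in a two-sided exact permutation test, adjusted 0.1 over the 8 ratios, which is the smallest p that 3 against 3 libraries allow. For single genes, 67.8% of all genes tested separated the genotypes in scaled reads and 68.1% on the TPM scale, beside 7 and 6 of these 8.

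**Figure D3:**
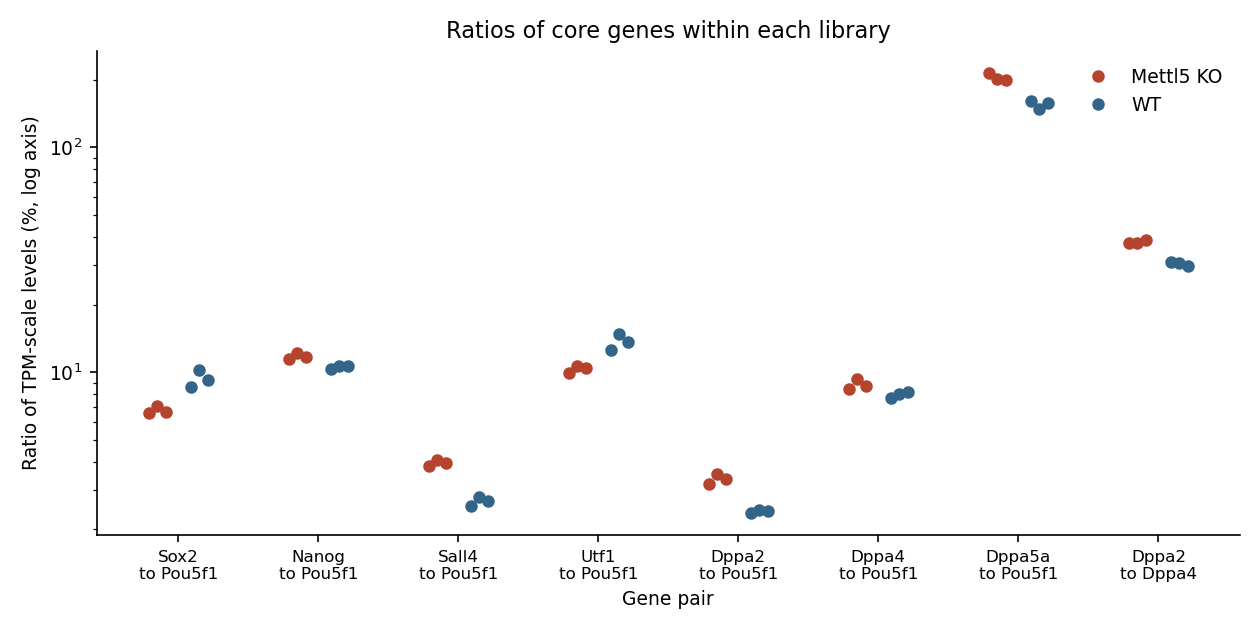
Ratios between core genes within each library (percent, TPM scale, log axis), Mettl5 KO left and WT right of each pair, 1 point per library. Sox2 and Utf1 are lower and the other genes higher relative to Pou5f1 in the knockout libraries, and Dppa2 is higher relative to Dppa4.

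The genes whose values ran most like those of each core gene were sought over the 6 libraries among protein-coding genes of at least 20 on the TPM scale, by the Euclidean distance of log2 values centred on the WT mean. Closest to Sox2 were Brca1 (distance 0.0746) and Gadd45gip1 (0.0786), and closest to Utf1 were Blm (0.0486) and Tcea3 (0.0574). Preb (0.0312) and Fpgs (0.0339) were closest to Pou5f1, and Ccni (0.0242) and Exosc10 (0.0247) to Nanog. Sall4 was closest to Rab5a (0.0303) and Golm1 (0.0319), Dppa2 to Pmm1 (0.0261) and Commd10 (0.0360), Dppa4 to Kdelr2 (0.0227) and Akap12 (0.0310), and Dppa5a to Dxo (0.0597) and Oaz1 (0.0597). With 2 genotypes such likeness is common: from 156 genes for Sox2 to 922 for Nanog lay within 0.2. None of the 8 genes was among the 2 closest to another of them. With 5025 genes searched and so many this close, that does not show whether the 8 genes vary together.

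Genes whose proteins bind OCT4 or NANOG changed in both directions. Of 28 such genes, 13 were higher, 11 lower and 4 not called, with a median log2 fold change of 0.06, beside 33.6% higher and 28.9% lower among all genes tested and 49.3% and 31.4% among genes of 20 or more on the TPM scale, where most of them lie. Sall1, a relative of Sall4 found in NANOG complexes, was lower (-1.13, SE 0.0253), as were Tet1, which oxidises methylcytosine (-0.84), and Parp1, a poly(ADP-ribose) polymerase (-0.55). Zfp462, a zinc-finger chromatin factor, was higher (0.82). Sall1 is on chromosome 8, where the median of all genes was -0.38. Of 19 coactivator genes of OCT4 and SOX2, 14 were higher and 3 lower (median 0.16). Ctr9, of the PAF1 complex, rose by 0.60 and Rad23b by 0.31, while Rad23b's partner in the XPC complex, Xpc, fell by 0.69 and the Mediator subunit gene Med1 fell by 0.53. Xpc is on chromosome 6, with its median of -0.29, and Med1 on chromosome 11, where the median was -0.41 and 57.5% of genes were lower. With equal totals the coactivator median was 0.00, with 6 higher and 3 lower, and the partners had 8 higher and 15 lower, beside 26.1% higher and 37.8% lower among all genes. Centring by chromosome left 5 or 7 coactivators higher and 7 or 9 partners higher, by median level and by median deviation. With these centrings 6536 or 7653 of 24109 genes were higher.

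Target genes of OCT4, SOX2 and NANOG were divided, with 8 of 18 higher, 9 lower and 1 not called (median -0.13). Over all genes tested, 33.6% were higher and 28.9% lower. Among genes of 20 or more on the TPM scale, where most of the targets lie, the shares were 49.3% and 31.4%. Zfp42, also called Rex1, was at 238 ± 2.59 in knockout and 584 ± 4.32 in WT cells, and the orphan receptor gene Esrrb at 51.8 ± 1.35 and 98.5 ± 2.79 (SD, n = 3). Zfp42 is on chromosome 8, where the median of all genes was -0.38. Fgf4, a growth factor gene with a joint OCT4 and SOX2 enhancer, fell by 0.76 to 32.5 ± 0.777 in knockout cells, against 57.3 ± 0.996 in WT cells. The NODAL antagonist gene Lefty1 went the other way, at 75.9 ± 2.63 in knockout and 44.9 ± 0.192 in WT cells. Equal totals gave 5 higher and 10 lower, beside 26.1% and 37.8% of all genes. Centring by chromosome gave 4 higher and 10 lower by median level, beside 6536 and 8171 of 24109 genes. By median deviation it gave 6 and 11, beside 7653 and 7023 of 24109 genes.

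Relatives of the core genes were followed because of shared DNA-binding domains and possible shared reads. Of 20 tested, 8 were higher and 9 lower (median -0.26), and 7 were under 1 on the TPM scale in each genotype. The shares over all genes tested were 33.6% higher and 28.9% lower. Among SOX genes, Sox15 was at 16.3 in knockout and 21.7 in WT cells (log2 fold change -0.34), Sox11 at 9.77 to 10.2 and 3.16 to 3.37 (1.65), Sox3 at 1.51 and 0.760 (1.03), and Sox1 at 0.142 and 0.311 (-1.07). The level of Sox2 exceeded that of each of these in every library. Among SALL genes, Sall1 was at 17.3 in knockout and 39.0 in WT cells, Sall2 at 5.27 and 1.59 (log2 fold change 1.78) and Sall3 at 0.896 and 0.196 (2.23). Of the POU genes, Pou3f1, an epiblast factor, rose by 1.44 to 7.59 in knockout cells, against 2.89 in WT cells. Pou2f1, which encodes the widely expressed OCT1, was higher by 0.15 on the log2 scale, and by equal totals was at -0.0069. Dppa3 and Khdc3, which like Dppa5a are expressed in oocytes and early embryos, fell by 2.27 and 2.75. Sall1 and Sox1 are on chromosome 8, Sox15 on chromosome 11 and Dppa3 on chromosome 6. The medians of all genes on these chromosomes were -0.38, -0.41 and -0.29.

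Genes that depend on DPPA2 and DPPA4 in embryonic stem cells were mostly higher, with 13 of 14 higher and 1 lower (median 1.98), and the same counts with equal totals. The shares over all genes tested were 33.6% higher and 28.9% lower, and 26.1% and 37.8% with equal totals. Zscan4f was at 67.1 ± 1.74 in knockout and 14.7 ± 0.726 in WT cells (SD, n = 3), and Zscan4d, Zscan4c and Usp17lc rose by 2.22, 2.21 and 1.91. These are multicopy genes that share reads, so the 13 are not all separate results. Of the 14 genes, 5 were under 1 on the TPM scale in knockout and 9 in WT cells. The 1 lower gene, Syce1 (-0.54), a meiotic gene, was named after its value was seen. Lineage genes that OCT4, SOX2 and NANOG hold down had 10 of 16 higher and 3 lower (median 1.69), beside 33.6% and 28.9% of all genes. Krt8 was at 782 ± 10.9 in knockout and 29.4 ± 0.495 in WT cells, Krt18 at 737 ± 19.1 and 20.9 ± 0.502, Cdx2 at 5.38 ± 0.144 and 0.258 ± 0.0118, and T at 63.4 ± 3.86 and 1.18 ± 0.21 (SD, n = 3). Lower were the endoderm factor genes Sox17 (-3.04, at 0.213 in knockout and 1.90 in WT cells), Gata6 (-1.86, at 0.540 and 2.13) and Gata4 (-1.16, at 1.62 and 3.77). They were named after their values were seen and are also among the endoderm markers counted above, so they are not a separate result.

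**Figure D4:**
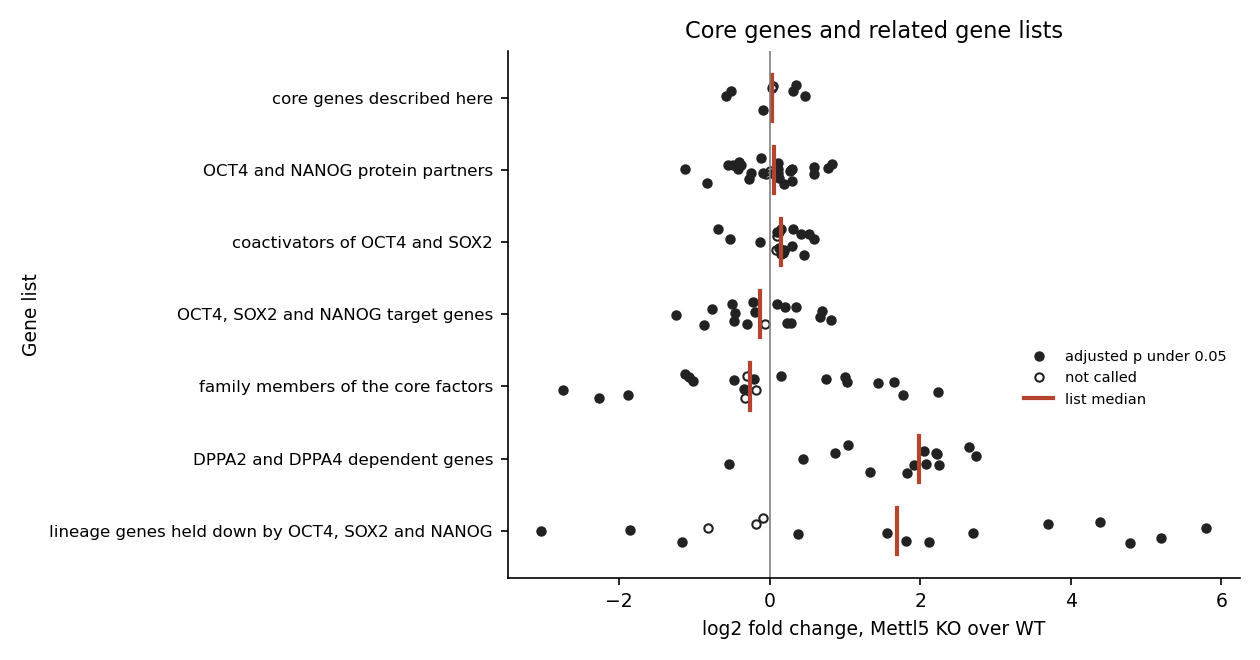
The log2 fold changes, Mettl5 KO over WT, of the 8 core genes and of 6 related gene lists, 1 point per gene, filled where the adjusted p was under 0.05, with the median as a bar. The core genes span -0.58 to 0.47, a narrower range than the genes that depend on DPPA2 and DPPA4 or the lineage genes, whose medians are 1.98 and 1.69.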

How the data were processed

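The submitters' processing notes name kallisto, sleuth and mm10, without versions, transcript set or strand. The authors deposited 2 signal values per gene and library, scaled reads and a rescaled TPM, per the file headers. Scaled reads were not whole. In each library 1 step size fitted best, and 29.7% to 32.8% of low values (0.5 to 40) were its whole multiples to within 0.02, too few to recover reads, so the step only estimated depth. limma 3.58.1 (R 4.3.3, intensity trend) was run on log2(scaled reads + 1) of 24183 genes with a mean of at least 1, without a block, with Benjamini-Hochberg adjustment over all of them. Alternatives used other scalings (TMM written out in R), filters, pseudocounts, columns, sums with pseudogenes and left-out libraries. Equal totals divide by the sum of scaled reads. Symbols came from GENCODE M21 (23846 of 24191 rows matched). Replicate pairs differed beyond counting noise (chi-square per degree of freedom 2.95 to 7.02). Same-numbered libraries deviated together only weakly (correlations -0.0094, 0.0383 and 0.0443), so numbers were not treated as pairs. Named genes were the 8 genes, Mettl5, up to 4 genes with the smallest p-values of each list other than marker lists, the nearest relatives, pseudogenes and the 2 most alike genes. Sox2ot and Gm19553, which overlap a core gene, and Pigp, which shares words with Dppa5a, fall outside this rule. So do genes said to be named after their values were seen. The 8 genes and all lists were chosen with earlier results of these data known. Python 3.11.15, pandas 2.3.3, numpy 2.4.6, scipy 1.17.1 and matplotlib 3.10.9 were used.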

Additional observations from a re-analysis of the deposited data

How the results depend on the processing

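Sox2, Utf1, Sall4 and Dppa5a kept their direction and their call under every alternative run. Leaving out each library in turn gave -0.61 to -0.53 for Sox2, -0.55 to -0.48 for Utf1, 0.46 to 0.48 for Sall4, 0.26 to 0.36 for Dppa5a, 0.34 to 0.37 for Dppa2, 0.033 to 0.050 for Nanog, 0.014 to 0.043 for Dppa4 and -0.11 to -0.066 for Pou5f1, with 3 genes called higher and 2 to 3 lower. Pou5f1 lost its call in 4 of these 6 fits and without the intensity trend (-0.089). Nanog was reversed with equal totals (-0.12) and on the TPM column (-0.014), and was called higher when centred by chromosome (0.30, or 0.32 with a centring chosen after seeing the data). Dppa4 was reversed with equal totals (-0.12), on the TPM column (-0.027) and with both centrings (-0.28 and -0.071), and Dppa2 lost its call with the first centring (0.043). With equal totals 5 of the 8 genes were called lower. Of the wider lists, the number called higher moved by over 1.5 times for partners (13, against 8 with equal totals and 7 with the first centring), coactivators (14, against 6, 5 and, with the second centring, 7) and target genes (8, against 5 and 4). The cause was not tested, but by construction the equal-totals scaling lowers every fold change by about the shift of its median. With the replicate number as a block, all 8 log2 fold changes and all 8 calls were as without it (adjusted p 0.004 for Pou5f1 and 6.98e-06 for Dppa5a), with 3 genes higher and 3 lower. For the ratios, leaving out a library gave -0.55 to -0.42 for Sox2 to Pou5f1, -0.48 to -0.36 for Utf1, 0.11 to 0.14 for Nanog, 0.52 to 0.59 for Sall4, 0.41 to 0.48 for Dppa2, 0.08 to 0.15 for Dppa4, 0.36 to 0.42 for Dppa5a and 0.30 to 0.34 for Dppa2 to Dppa4.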
